A study of Homo sapiens with 9 samples.

Results

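The binding of RBFOX2 in human embryonic kidney cells was profiled in both formats of antibody-barcode eCLIP (ABC), and the genes bound in each format are compared here. The cells are HEK293T in the sample titles and HEK293XT in the study's methods, and HEK293 stands for both below. Members were chosen by RBP, cell line and format, which gave 4 RBFOX2 libraries from 4 of the 9 samples of the series. In ABC, RNA is crosslinked to its RBPs with UV light, and a DNA oligo attached to each antibody is joined to the RNA that its RBP holds, so that the read tells the antibody. In the 2 singleplex samples the RBFOX2 antibody was used alone. In the 2 10plex samples it was 1 of 10 barcoded antibodies used together on 1 lysate, with those against DDX3, EIF3G, FAM120A, IGF2BP2, LIN28B, PRPF8, PUM2, SF3B4 and ZC3H11A. No drug treatment or genetic change is named for any of the 4, so all groups are cells of 1 line grown without a stated treatment. The sources do not say whether replicates came from separate cultures, and p-values therefore measure only the spread between these libraries, which may be technical.

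RBFOX2 is a splicing regulator that recognizes GCAUG, often preceded by U, mostly within introns. It is best known for promoting inclusion of an alternative exon when bound downstream of it and skipping when bound upstream. Its targets include genes of the cytoskeleton, of cell adhesion and of other splicing regulators, and its own pre-mRNA.

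Sites that carried GCATG and were enriched in all 4 libraries show what both formats had in common. They are printed 5′ to 3′ as 30-nt windows of the GRCh38 reference on the strand of the RNA, with T for U, and capitals mark GCATG. The first 8 had the highest mean log2 fold over the external background, taken at most once per gene. The site of NDEL1, which encodes a dynein regulator, was added as a gene chosen by name.
MMP25-AS1: ccccgcctctgtGCATGcatctgtccgtcc
EPB41L2: ttcaagcacggtGCATGcagtGCATGgggg
RN7SK: aaatgaggcgctGCATGtggcagtctgcct
RTEL1: actccccccacaGCATGtgcccggcctgac
DNM1: cttgtgtttcctGCATGtcctctggtgtga
GPI: cacgggacctttGCATGtgctgttatggct
SNAP47: tgtgtgtgctgtGCATGtgcgtGCATGtgt
TRIM74: ggagcgcgtgggGCATGatgggacacatgg
NDEL1: tgtggctgcgctGCATGgtgcgtgaggggg

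The site in the antisense RNA MMP25-AS1 lies in a noncoding exon at chr16:3054288-3054317 on the minus strand. EPB41L2 encodes a membrane skeleton protein, and its site at chr6:130880025-130880054 on the minus strand lies 101 nt downstream of the nearer exon with 2 copies of GCATG. RN7SK, the noncoding RNA that holds the elongation factor P-TEFb inactive, carries its site at chr6:52995915-52995944 on the plus strand. The site of the helicase gene RTEL1, at chr20:63668011-63668040 on the plus strand, lies 490 nt downstream of the nearer exon. In DNM1, which encodes the endocytic GTPase dynamin, the site at chr9:128233416-128233445 on the plus strand lies 561 nt upstream of the nearer exon.

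The glycolytic gene GPI carries its site deep in an intron at chr19:34389650-34389679 on the plus strand, 3560 nt upstream of the nearer exon. The site of SNAP47 is in the 3′ UTR at chr1:227767731-227767760 on the plus strand and again holds 2 copies. The site of TRIM74 at chr7:72969165-72969194 on the minus strand lies 110 nt downstream of the first exon, in a gene with near-identical copies nearby, so that its reads may be shared with them. The site of NDEL1 at chr17:8465881-8465910 on the plus strand lies 1014 nt upstream of the nearer exon, in an intron of 3575 nt.

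The libraries differed in depth and in the control behind their values. CLIPper called 360546 and 205485 peaks in singleplex replicates 1 and 2, and 169175 and 220817 in 10plex replicates 1 and 2. Reads in peaks of genes summed to 3352957, 1615899, 1158531 and 1777159 in the same order. Each deposited peak has a P and a fold over an external background library. At peaks placed alike in both libraries of a pair, the background reads recovered from these values were equal in 80.9% to 84.2% of peaks among singleplex replicates 1 and 2 and 10plex replicate 1, but in 21.2% to 29.2% of peaks between any of them and 10plex replicate 2. The background behind 10plex replicate 2 thus did not match that of the other 3 libraries, and values without that library are given beside the differences in gene counts, regions and intron position that it moved by over 1.5 times.

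The cell line label of the 10plex samples was also checked, as the titles name HEK293T cells and another field names K562. Of 12 erythroid genes that mark K562 cells, at most 1 had a peak in any of the 4 libraries and 0 had an enriched peak, whereas 9 to 11 had a peak in the RBFOX2 libraries of 10plex ABC in K562 cells. Of 8 genes that mark HEK293 cells, 7, 7, 6 and 7 had a peak in the 4 libraries, and 1, 0 and 0 in those of K562 cells. All 4 libraries were therefore compared as HEK293, and the defining marker without a peak in any of them was L1CAM.

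A peak was taken as enriched with a P below 0.001 and a fold above 8 over the external background. The number of enriched peaks was 29265 and 24014 in singleplex and 19388 and 14195 in 10plex. Both singleplex libraries held more than both 10plex libraries, with means of 26640 ± 3713 and 16792 ± 3672 (SD, n = 2). With 2 libraries against 2, the exact two-sided permutation test cannot give a p below 0.3333, and it gave that value here. The share of merged peaks that were enriched, 8.63% and 12.5% against 12.3% and 6.86%, overlapped between formats. A peak with at most 1 background read needed 22, 13, 10 and 16 reads to be called, and these numbers overlapped between formats, as did the reads in peaks. The part of depth and of background in the number of peaks was not tested.

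The genes with most enriched peaks were largely the same in both formats. SLIT2, which encodes a secreted axon guidance protein, came first in every library with 235 and 168 enriched peaks in singleplex and 108 and 88 in 10plex. GCATG was present in 68, 52, 40 and 31 of these. DIP2C, a gene of the disco-interacting family, followed by mean number with 128, 115, 75 and 63. GSE1, which encodes a protein of a histone deacetylase complex, held 65, 75, 52 and 43. All 3 had fewer enriched peaks in both 10plex libraries than in either singleplex library.

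DNM1 held 67, 52, 49 and 43 enriched peaks. DGCR8, which encodes the RNA-binding partner of the microRNA-processing enzyme DROSHA, held 58, 43, 48 and 43. GPI held 48, 46, 42 and 40. The counts of these 3 lay closer together than those of SLIT2, and those of DGCR8 overlapped between formats. CACNA1H, a calcium channel gene, held 56 and 77 in singleplex and 28 and 26 in 10plex. PRRC2B, a gene of the PRRC2 family of RNA-associated proteins, held 59 and 49 against 41 and 21.

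The 2 noncoding RNAs in this set, NEAT1 and MALAT1, went the other way or overlapped. NEAT1, the scaffold of paraspeckles, held 53 and 41 enriched peaks in singleplex and 56 and 64 in 10plex. MALAT1, an abundant nuclear RNA of splicing speckles, held 55 and 32 against 57 and 47. GCATG was present in 5 to 8 of the peaks of NEAT1 and 3 to 5 of those of MALAT1, a small share of each.

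**Figure D1:**
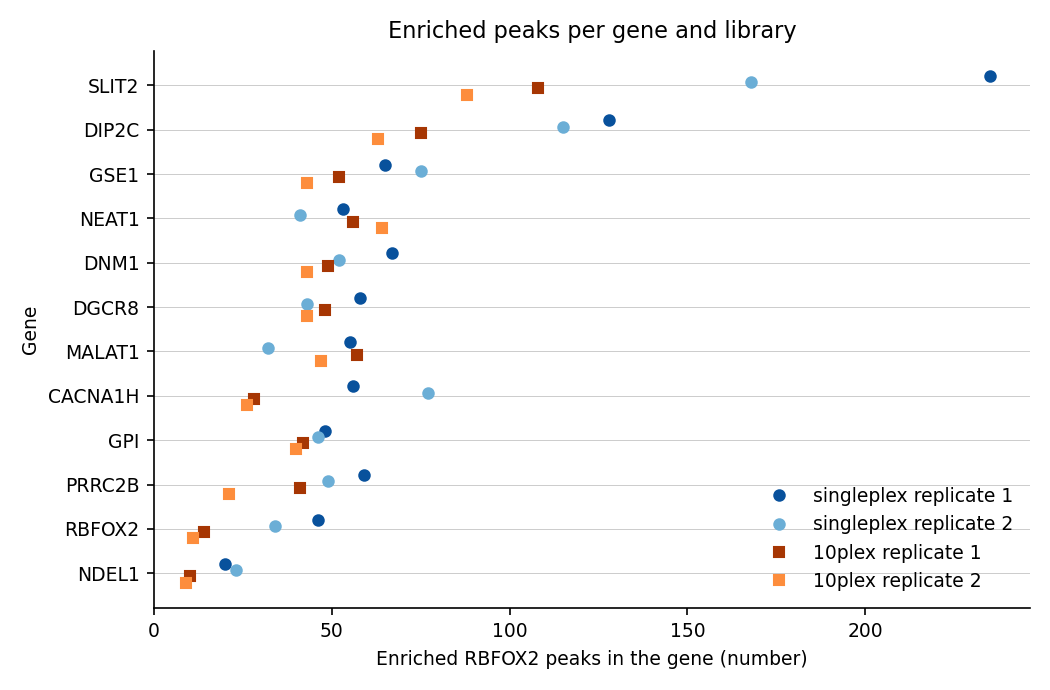
Number of enriched peaks in each of the 4 libraries for the genes with the highest mean number, 1 point per library, with NDEL1 and RBFOX2. SLIT2 runs from 88 to 235, both singleplex libraries lie above both 10plex libraries for most of the protein-coding genes, and NEAT1 lies higher in both 10plex libraries.

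Of the 100 genes with most enriched peaks in each library, 84 were shared between the singleplex replicates, 78 between the 10plex replicates and 63 to 76 between a library of each format. Across the 7016 genes tested below, log2 RPM (the reads in peaks of a gene, scaled to 1000000 reads in peaks of all genes of the library) correlated with r = 0.95 between singleplex replicates, 0.892 between 10plex replicates and 0.818 to 0.830 between formats. These values are across genes, which are not independent replicates.

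An enriched peak was found in 5747 and 5336 genes in singleplex and in 5241 and 4152 genes in 10plex. Of the genes of singleplex replicate 1, 84.1% were also found in singleplex replicate 2, 76.0% in 10plex replicate 1 and 62.9% in 10plex replicate 2. In the other direction, 83.3% of the genes of 10plex replicate 1 and 87.0% of those of 10plex replicate 2 were found in singleplex replicate 1. Between the 10plex libraries the shares were 71.6% and 90.3%. Both shares of a pair divide the same shared genes by the length of a list, so the shorter list always has the higher share. Singleplex replicate 1 was covered less by 10plex replicate 1 than by singleplex replicate 2, a list of similar length. The genes of 10plex replicate 2 were covered less by singleplex replicate 1 than by the shorter list of 10plex replicate 1. The part of list length in these shares was not tested. Overlap was lower peak by peak: 67.9% of the enriched peaks of singleplex replicate 1 overlapped one of singleplex replicate 2, 48.5% one of 10plex replicate 1 and 40.7% one of 10plex replicate 2.

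Of 16713 genes with any peak, 7102 had an enriched peak in at least 1 library. All 4 libraries shared 3227 of them, which is 45.4% of the 7102 and 19.3% of the genes with any peak. Both singleplex libraries and neither 10plex library held 689 genes (9.70% of the 7102 and 4.12% of those with any peak). Both 10plex libraries and neither singleplex library held 248 genes (3.49% and 1.48%). The order turned when every library was given the same number of peaks: the 10000 enriched peaks of lowest P gave 219 genes in singleplex only and 471 in 10plex only, and the 20000 peaks with most reads gave 279 and 600. A further 759 genes were missing from 10plex replicate 2 alone, the library with the fewest enriched peaks and its own background. Without 10plex replicate 1 the genes found in singleplex only numbered 1448, and without singleplex replicate 2 they numbered 1177. The genes found in 10plex only numbered 431 without singleplex replicate 1, 417 without 10plex replicate 1 and 683 without 10plex replicate 2. Presence in a list has no replicate test at this number of libraries.

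Absence of an enriched peak was seldom absence of peaks. Of the 689 genes found in singleplex only, 681 had a peak below the limits in a 10plex library, and of the 248 found in 10plex only, 233 had one in a singleplex library. Genes of both sets had a median of 1 enriched peak in each library that held them, against 5, 4, 3 and 2 for the genes found in all 4. Protein-coding genes made up 89.9% of the genes found in all 4 and 94.2% of those found in singleplex only, but 61.3% of those found in 10plex only. Among the latter were 22 rRNA pseudogenes, 20 small nucleolar RNAs and Cajal body RNAs and 46 long noncoding RNAs. The singleplex set held 0, 2 and 32 of these, in the same order.

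The sets also differed in the peaks themselves. In genes found in singleplex only, 66.8% and 55.5% of enriched peaks held GCATG in replicates 1 and 2. In genes found in 10plex only, the shares were 39.9% and 33.7%, and in genes found in all 4 they were 41.0%, 34.4%, 36.5% and 37.9%. The motif was thus more frequent in the singleplex-only peaks than in any other class, and equally long windows, placed 500 nt from the peaks, contained it in 6.82% to 8.84% of cases. Exonic peaks made up 15.7% and 18.7% of those in genes found in singleplex only and 37.1% and 40.1% of those in genes found in 10plex only. Peaks of the other 9 RBPs of the HEK293 pool overlapped 17.6% and 19.3% of the former and 61.5% and 69.0% of the latter.

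**Figure D2:**
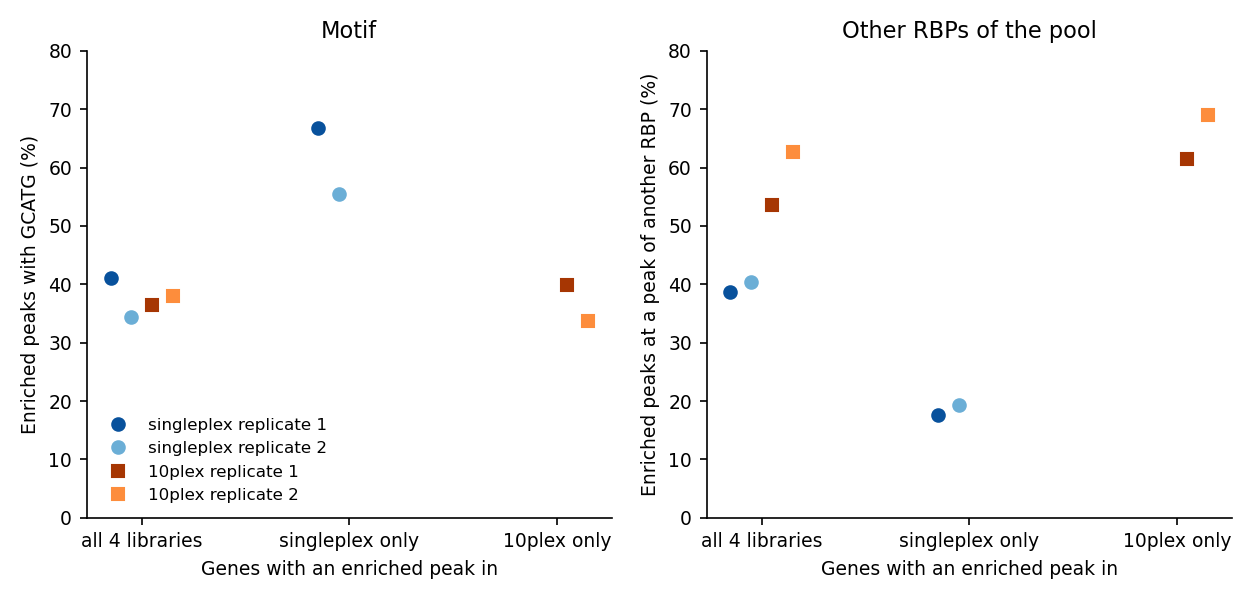
Share of enriched peaks (%) that hold GCATG (left) or overlap a peak of another RBP of the pool (right), 1 point per library, for genes with an enriched peak in all 4 libraries, in singleplex only and in 10plex only. Peaks of genes found in singleplex only hold GCATG most often (66.8% and 55.5%), and those of genes found in 10plex only overlap other RBPs most often (61.5% and 69.0%).

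The genes found in 1 format only with the most reads in peaks are given by name. DIP2B, a relative of DIP2C, had 7 and 5 enriched peaks in singleplex and none in 10plex, with 264 and 230 RPM against 108 and 119. The groups did not overlap, and the log2 difference (10plex minus singleplex) was -1.12 ± 0.21 (SE; limma, adjusted p = 0.0166). PRKAG2, a regulatory subunit gene of the energy sensor AMPK, had 5 and 5 enriched peaks in singleplex and a log2 difference of -0.88 ± 0.20 (adjusted p = 0.0299). The multidrug transporter gene ABCC1 (-0.96 ± 0.20, adjusted p = 0.0256) and the mitochondrial cristae gene CHCHD6 (-0.79 ± 0.21, adjusted p = 0.0476) were also higher in singleplex. The call of CHCHD6 was lost under quantile normalization (adjusted p = 0.0794), without mitochondrial genes (adjusted p = 0.0502) and with a replicate block (adjusted p = 0.0624). It was also lost when any 1 library was left out (log2 difference -0.89 to -0.68). Such a loss was common: most calls of named genes were lost without 1 of the 10plex libraries, and nearly all without 1 of the singleplex libraries. RSRC1, a splicing-related gene with 6 and 5 enriched peaks in singleplex, was not called, with 274, 214, 159 and 198 RPM (-0.45 ± 0.22, adjusted p = 0.218).

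On the 10plex side, RNA5SP202 and RNA5SP225, which are 5S rRNA pseudogenes, led. RNA5SP202 had 7 and 0 reads in singleplex and 294 and 560 in 10plex (limma, adjusted p = 0.000108). RNA5SP225 had 0 and 0 against 446 and 500 (adjusted p = 4.27e-05). Copies of the 5S gene are near-identical, so the pseudogene that the reads came from is uncertain.

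The other 3 were protein-coding. DAB2IP, a Ras GTPase-activating protein gene, had 218, 207, 186 and 204 RPM (-0.13 ± 0.20, adjusted p = 0.699). GLI2, a transcription factor gene of Hedgehog signalling, had 237, 243, 233 and 225 (-0.07 ± 0.19, adjusted p = 0.84). GNL2, a nucleolar GTPase gene, had 124, 32, 68 and 724 reads, of which most came from 10plex replicate 2 (log2 difference 2.47 ± 0.70, adjusted p = 0.0593). For DAB2IP and GLI2 the list of enriched peaks differed between formats while the reads in peaks were close in all 4 libraries.

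Reads in peaks were then compared gene by gene. Reads of a gene were counted once where peaks touched, expressed as RPM, and tested with limma on log2(value + 1) with adjustment by Benjamini-Hochberg. Of 7016 genes tested, 521 (7.43%) were called at an adjusted p below 0.05. Of these, 270 (3.85%) were higher in 10plex and 251 (3.58%) higher in singleplex. An unadjusted p of 0.05 was passed by 2011 genes, 770 higher in 10plex and 1241 in singleplex. The median log2 difference over all genes was -0.15, and the values of 60.3% of genes did not overlap between formats. The number of calls depended on having both libraries of each format: it was 0 without singleplex replicate 1 (1045 at an unadjusted p of 0.05) and 5 without singleplex replicate 2, and 290 and 219 without 10plex replicates 1 and 2. These fits assume that the lone library varied like the other format.

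**Figure D3:**
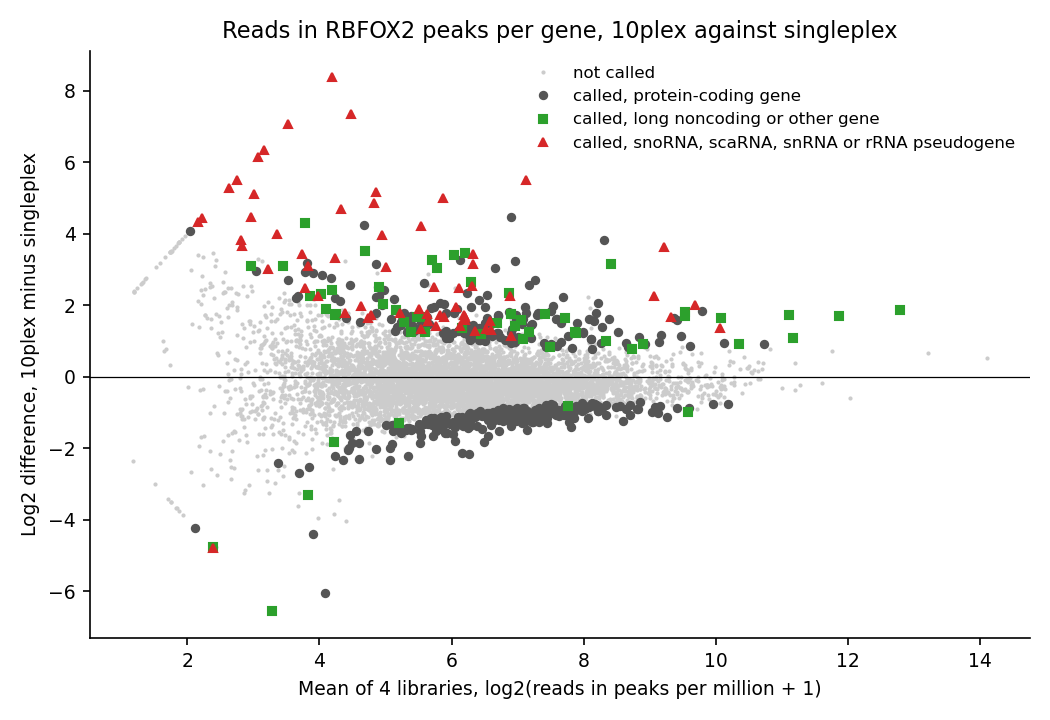
Log2 difference in RPM (10plex minus singleplex) against the mean log2 level for the 7016 genes tested, with called genes and classes of small RNA coloured. Small RNA genes and rRNA pseudogenes lie above 0 in most cases, and the median over all genes is -0.15.

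Called genes of most classes of small noncoding RNA were higher in 10plex. Of 136 small nucleolar RNAs tested, which guide modification of rRNA, 28 were higher in 10plex and 1 in singleplex, with a median log2 difference of 1.13. Of 13 small Cajal body RNAs, which guide modification of spliceosomal RNAs, 5 were higher in 10plex and 0 in singleplex (median 1.56). Of 18 small nuclear RNAs, 8 and 0 were called (median 1.46). Of 40 rRNA pseudogenes, 37 of them named as 5S copies, 20 and 0 were called (median 3.45, or 3.14 with genes at 0 in a format held at a floor of 3 reads). For the 18, 13 and 40 genes of the last 3 classes, 0 passed even an unadjusted p of 0.05 in the singleplex direction. Of 25 microRNA genes, 0 were called by limma in either direction, and 3 passed the unadjusted p (2 higher in 10plex and 1 in singleplex).

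RN7SK had 214 and 278 RPM in singleplex and 1086 and 1267 in 10plex, a log2 difference of 2.26 ± 0.21 (limma, adjusted p = 0.000376). Singleplex reads came from peak names, while 10plex reads were recovered from fold and P. At the RN7SK site the named singleplex reads, 618 and 273, were fewer than its log2 folds of 8.73 and 9.59 imply. The part of the read source in the differences of RN7SK and other small RNAs was not tested. The following 3 were named after their values were seen and add no support. SNORD3A, the U3 RNA of rRNA processing, had 125 and 224 against 2003 and 2179 RPM (3.63 ± 0.26, adjusted p = 0.000108). RNU11, a small nuclear RNA of the minor spliceosome, had 451 and 369 against 1615 and 1672 (2.01 ± 0.20, adjusted p = 0.000498). RMRP, the RNA of RNase MRP, had 1017 and 1459 against 3693 and 4385 (1.72 ± 0.24, adjusted p = 0.00452). The formats did not overlap for any of the 4.

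The enriched peaks of these small RNAs rarely held GCATG and nearly always lay at a peak of another RBP of the pool. Of 253 enriched peaks in small nucleolar and Cajal body RNAs in 10plex replicate 2, 14 (5.53%) held GCATG, and in singleplex replicate 1 the motif was in 16 of 155 (10.3%). Overlap with a peak of another RBP was 98.1%, 99.4%, 100% and 100% in the 4 libraries for these RNAs, and 100% in each for rRNA pseudogenes. The overlap was near complete in all 4 libraries, and its cause was not tested. The small RNAs took 0.278%, 0.454%, 0.931% and 0.976% of reads in peaks for small nucleolar RNAs, and 0.233%, 0.225%, 0.648% and 0.739% for small nuclear RNAs.

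The largest differences were at genes with 0 to 7 reads in peaks above background in 1 format, for which no fold is given. Besides the 2 5S pseudogenes above, these were RNA5SP370 (0 and 0 reads in singleplex, 136 and 265 in 10plex; adjusted p = 0.000136), SNORA51 (0 and 0, 50 and 259; adjusted p = 0.00169) and SNORD16 (0 and 0, 114 and 87; adjusted p = 0.00144). On the singleplex side, LINC01923 had 225 and 210 reads against 0 and 0 (adjusted p = 0.000498). DCC, which encodes a netrin receptor, had 328 and 312 reads against 0 and 6 (adjusted p = 0.00153), and none of its enriched peaks held GCATG. SNORA62 (94 and 41 reads against 0 and 0, adjusted p = 0.0139) and FRG1-DT (76 and 49 against 0 and 0, adjusted p = 0.0146) followed. All 4 enriched peaks of FRG1-DT lay within 30 nt of a sequence that matches the adapter with at most 1 mismatch, and 0 held GCATG. UBB, a ubiquitin gene, had 37 and 98 reads against 0 and 0 (adjusted p = 0.0259), but 5 and 6 merged peaks in the 10plex libraries lay at or below the background, where reads could not be recovered.

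Protein-coding genes without a small nucleolar or Cajal body RNA inside went more often the other way. Of 6006, 135 (2.25%) were higher in 10plex and 232 (3.86%) in singleplex, beside 3.85% and 3.58% of all genes tested. The singleplex share was thus near that of all genes. Their median log2 difference was -0.20. The 135 had a median length of 30971 nt and the 232 a median of 126918 nt, beside 51370 nt for those tested. Among 176 protein-coding genes with such an RNA inside, 25 (14.2%) were higher in 10plex and 11 (6.25%) in singleplex. Both shares were above those of all genes tested, and the median log2 difference of the 176 was -0.07, beside -0.15 for all. NCL, the nucleolin gene with 3 small nucleolar RNAs inside, had 38.5 and 15.5 RPM in singleplex and 417 and 752 in 10plex (4.46 ± 0.41, adjusted p = 0.000355), and was named after its values were seen. CHD4, a chromatin remodeller gene with SCARNA11 inside, had 35.5 and 44.6 against 396 and 366 (3.23 ± 0.23, adjusted p = 0.000108). A peak on such an RNA that reached an exon or splice site of the host gene was assigned to the host. Reads of host and small RNA were therefore not separated there. Long noncoding RNAs were called 40 times as higher in 10plex and 7 times as higher in singleplex, of 504 tested (median 0.30). NEAT1, with 2029 and 2129 RPM in singleplex and 8150 and 5540 in 10plex (1.69 ± 0.26, adjusted p = 0.00644), and MALAT1, with 1585 and 1581 against 3416 and 3292 (1.08 ± 0.21, adjusted p = 0.0171), were among the former.

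Enriched peaks of the genes higher in 10plex held GCATG in 26.0%, 23.4%, 23.4% and 19.0% of cases in the 4 libraries. In the genes higher in singleplex the shares were 50.7%, 42.2%, 43.8% and 44.2%, and in genes not called 45.0%, 37.0%, 39.0% and 39.7%. The low share was thus present in the singleplex libraries as well. Overlap with a peak of another RBP ran the opposite way, with 68.7% to 85.8% in genes higher in 10plex, 20.05% to 41.1% in genes higher in singleplex and 35.4% to 61.2% in genes not called.

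RBFOX2 bound its own transcript in both formats. The gene held 46 and 34 enriched peaks in singleplex and 14 and 11 in 10plex, of which 28, 12, 7 and 4 had GCATG. With 1274 and 1308 RPM against 798 and 729, it was higher in singleplex (log2 difference -0.76 ± 0.19, limma, adjusted p = 0.0419). The call was lost with a replicate block (adjusted p = 0.0694). As for most named genes, it was also lost when a library was left out (log2 difference -0.82 to -0.69). NDEL1 held 20, 23, 10 and 9 enriched peaks, of which 4, 3, 3 and 3 had GCATG. Its RPM, 453, 706, 557 and 431, overlapped between formats (-0.21 ± 0.25, adjusted p = 0.605), and the difference was 0.11 without singleplex replicate 2 and -0.023 without 10plex replicate 2.

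The log2 folds of the 9 GCATG sites printed above are a description, since 8 were chosen for a high mean over the 4 libraries. At MMP25-AS1, EPB41L2, DNM1, GPI and SNAP47 the background was at most 1 read in every library. Their folds therefore follow the reads at the site and the depth of the libraries. That of MMP25-AS1 had log2 folds over the external background of 10.7 and 11.1 in singleplex and 11.9 and 11.9 in 10plex, with 3002, 2081, 2497 and 4555 reads. The site of RTEL1 had 9.77, 9.89, 9.67 and 9.96, which overlapped between formats. That of DNM1 had 10.3 and 10.8 against 9.10 and 8.83, and that of SNAP47 10.5 and 10.6 against 9.04 and 8.47, both higher in each singleplex library. The site of EPB41L2 had 9.47 and 10.2 against 10.8 and 10.7, that of RN7SK 8.73 and 9.59 against 10.9 and 10.9 and that of NDEL1 6.52 and 6.90 against 7.28 and 7.26, all higher in each 10plex library. GPI had 9.94, 10.2, 9.74 and 9.04, and TRIM74 had 8.03, 9.68, 9.32 and 10.8. All 9 sites also lay at a peak of at least 1 other RBP of the pool.

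**Figure D4:**
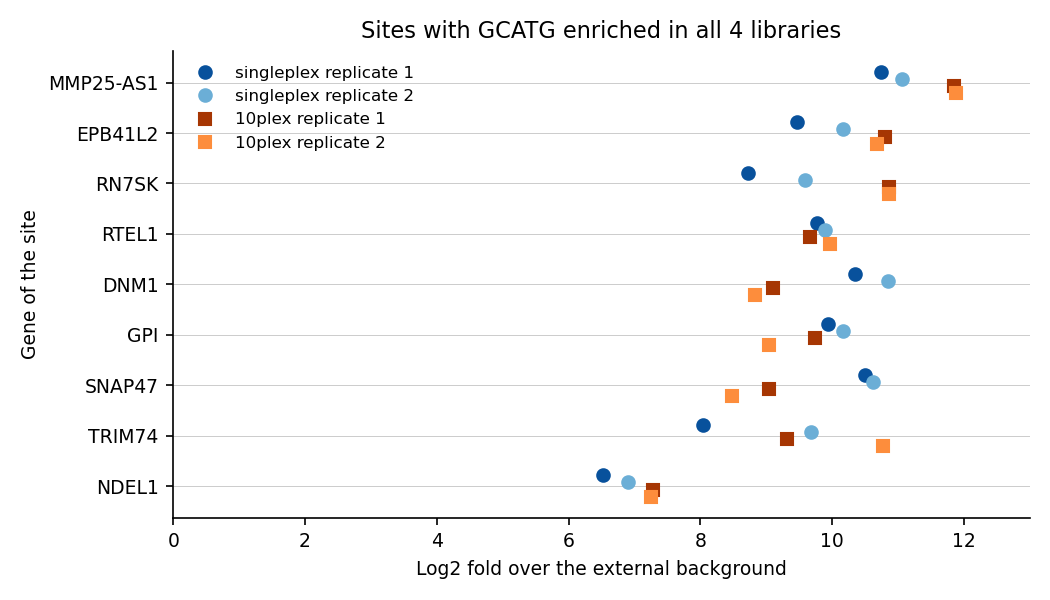
Log2 fold over the external background at 9 GCATG sites enriched in all 4 libraries, 1 point per library. All values lie between 6.52 (NDEL1) and 11.9 (MMP25-AS1), and the format with the higher values differs from site to site. The folds of MMP25-AS1, EPB41L2, DNM1, GPI and SNAP47 are over at most 1 background read.

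More widely, 8715 enriched peaks of singleplex replicate 1 (29.8%) overlapped an enriched peak in each of the other 3 libraries, in 2682 genes. GCATG was in 41.2% of these and in 46.2% of the rest of that library. Peaks of another RBP overlapped 61.8% of them and 24.5% of the rest.

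Most enriched peaks were intronic in every library. Distal introns, more than 500 nt from a splice site, held 52.6% and 51.5% of enriched peaks in singleplex and 48.1% and 44.6% in 10plex. Proximal introns held 20.3% and 19.7% against 18.8% and 18.2%. Both were higher in each singleplex library, by 5.71 and 1.47 percentage points between means. With an equal number of peaks, the 10000 enriched peaks of lowest P in each library, these differences were 1.435 and 3.045. Coding exons held 2.32% and 3.10% against 3.78% and 5.67%, and noncoding exons 3.34% and 3.82% against 5.87% and 7.73%, both lower in each singleplex library. The difference in coding exons, -2.02 percentage points between means, was -1.07 without 10plex replicate 2. Among the 10000 peaks of lowest P it was -0.87, and the formats overlapped. That in noncoding exons, -3.22 between means, was -3.45 among the 10000. The exact two-sided permutation test gave 0.3333, the smallest value possible, for each of these 4 regions (0.394 after Benjamini-Hochberg over the regions). The 5′ splice site (6.56%, 6.09%, 6.29% and 6.07%) and the 3′ UTR (5.31%, 6.07%, 5.85% and 5.94%) overlapped between formats.

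**Figure D5:**
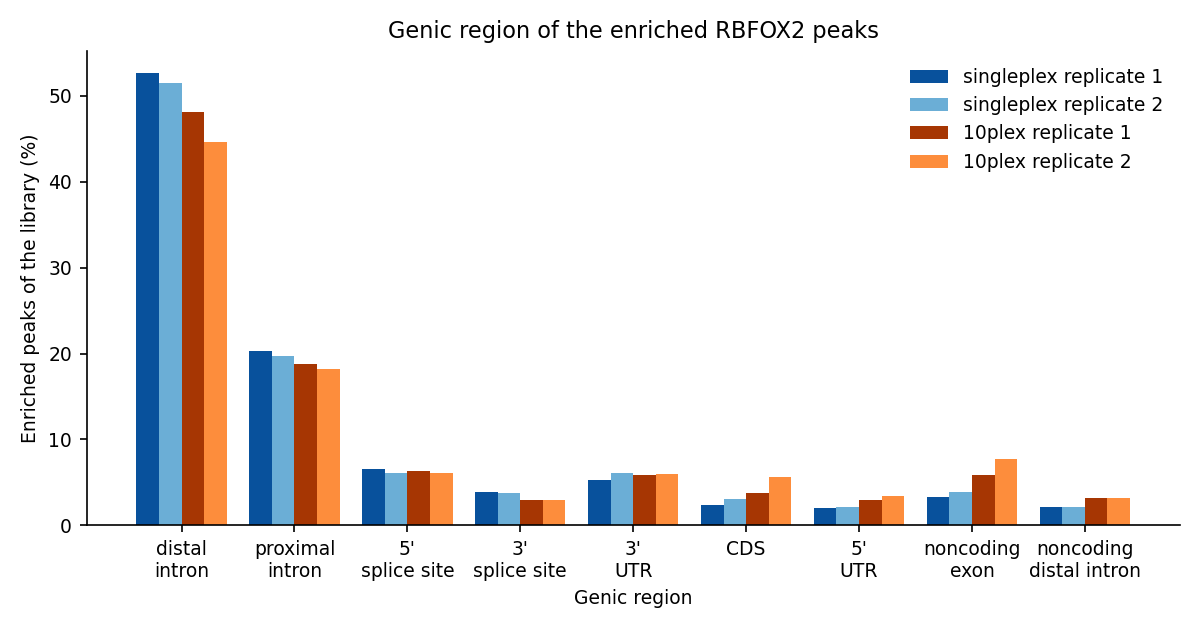
Share of enriched peaks in each genic region, 1 bar per library. Distal introns lie higher in both singleplex libraries and coding and noncoding exons higher in both 10plex libraries, while 3′ UTRs overlap.

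Within introns the position of peaks was similar. The median distance to the nearest splice site was 1080 and 1078 nt in singleplex and 1045 and 961 nt in 10plex. The 5′ splice site was the nearer one for 59.8%, 58.9%, 60.03% and 59.8% of intronic peaks, so that peaks lay somewhat more often downstream of the nearer exon in all 4 libraries. First introns held 30.9% and 30.0% against 31.7% and 31.3%. Peaks farther than 10000 nt from a splice site made up 18.8% and 18.5% against 16.5% and 15.5%, higher in each singleplex library. The difference in distance, 76 nt between means, was 34 nt without 10plex replicate 2, and that in the length of the host intron, 561 nt, was 234.5 nt. Both changed direction among the strongest peaks: by -114.75 and -625 nt for the 10000 with the lowest P in each library.

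GCATG, read within the peak on its own strand, was found in 44.7% and 36.9% of enriched peaks in singleplex and in 38.1% and 38.2% in 10plex. Equally long windows 500 nt from the peaks contained it in 7.53%, 7.85%, 6.80% and 8.45%. The 10plex shares fell between those of the singleplex replicates, and the difference between means, 2.66 percentage points (exact permutation p = 1), became -1.26 without singleplex replicate 1. With peaks extended by 50 nt, GCATG was in 66.3% and 61.8% in singleplex and 59.1% and 55.7% in 10plex. Each singleplex library was then higher, as also among the 20000 peaks with most reads. Among the 10000 of lowest P the formats overlapped. The longer TGCATG was in 32.7%, 26.4%, 26.2% and 26.8%. The secondary motif GCACG was in 4.23% and 4.30% in singleplex and 6.51% and 7.32% in 10plex, higher in each 10plex library (exact permutation p = 0.3333), beside 2.33% to 3.10% of windows. By region, GCATG was in 50.4%, 41.0%, 45.1% and 47.1% of distal intronic peaks, in 30.3%, 27.4%, 21.3% and 20% of those in coding exons and in 22.7%, 19.3%, 16.6% and 14.1% of those in noncoding exons. Peaks in 3′ UTRs held it in 45.6%, 39.0%, 38.2% and 39.1%. Coding and noncoding exons thus held it less often than distal introns in all 4 libraries, while 3′ UTRs lay near the shares over all regions.

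Peaks of the other 9 RBPs overlapped 35.6% and 37.8% of enriched RBFOX2 peaks in singleplex and 51.8% and 62.7% in 10plex. Both 10plex libraries were higher, by 20.6 percentage points between means (exact permutation p = 0.3333, the smallest possible). Among the 10000 enriched peaks of lowest P in each library the shares were 53.7% and 52.7% against 63.8% and 68.7%. Without 10plex replicate 2 the difference, singleplex minus 10plex, was -15.1 points. The 10plex libraries were made from the same pool as these peaks and the singleplex libraries were not, and its part in the difference was not tested. In coding exons the overlap was 65.4% and 68.5% against 82.1% and 88.2%, and in distal introns 26.1% and 27.6% against 40.3% and 50.8%.

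Genes were also grouped by function, and each group is described by its counts beside the 7.43% of all genes called and the median of -0.15. By direction, 3.85% of the 7016 genes tested were higher in 10plex and 3.58% in singleplex. Unadjusted counts stand beside 770 and 1241 of the 7016, in the same order. An enriched peak in all 4 libraries was found for 52 of 76 splicing regulators (68.4%), 38 of 57 actin and spectrin genes (66.7%), 47 of 71 chromatin regulators (66.2%), 26 of 49 adhesion and polarity genes (53.1%) and 24 of 42 microtubule and dynein genes (57.1%). For nuclear respiratory chain genes it was 11 of 53 (20.8%) and for cytoplasmic ribosomal protein genes 30 of 79 (38.0%), beside 19.3% of all genes with a peak. That base holds genes of every type, and of genes with an enriched peak in any library the share was 45.4%. The lists were chosen with earlier results of these data known, so these shares are a description only.

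Of 68 splicing regulators tested, 6 were higher in 10plex and 2 in singleplex (median log2 difference 0.23). HNRNPU, which encodes a nuclear matrix RNA-binding protein, had 398.5 and 406.6 RPM in singleplex and 762 and 811 in 10plex (0.96 ± 0.19, limma, adjusted p = 0.0177). SRRM1 (1.46 ± 0.24, adjusted p = 0.0103) and SRRM2 (0.86 ± 0.20, adjusted p = 0.0305), both encoding coactivators of splicing, LUC7L3 (1.05 ± 0.22, adjusted p = 0.0256) and MATR3 (0.82 ± 0.21, adjusted p = 0.0453), with SNORA74A and SNORA74D inside, were also higher in 10plex. With reads of enriched peaks only, the differences of HNRNPU, SRRM1 and SRRM2 turned to -0.36, -0.22 and -0.42. The sixth was RBFOX1, a paralog of RBFOX2, with 0 and 0 reads in singleplex and 13 and 40 in 10plex (adjusted p = 0.0406) and no GCATG in its enriched peaks. HNRNPA1, encoding a splicing repressor, had 314 and 337 RPM against 167 and 182 and was higher in singleplex (-0.90 ± 0.20, adjusted p = 0.0287), as was RBFOX2 itself.

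Of 50 actin and spectrin genes, EPB41L2 was higher in 10plex, with 1056 and 1441 RPM against 2307 and 2313 (0.90 ± 0.22, adjusted p = 0.039). In the same group 6 were higher in singleplex, which were FMNL2, EPB41L5, ABI1, DIAPH1, ABLIM1 and MYH9, at log2 differences from -1.10 (DIAPH1, a formin gene) to -0.81 (EPB41L5), beside a group median of -0.29. ENAH, an actin assembly gene with 52, 35, 21 and 24 enriched peaks, was not called (-0.52 ± 0.19, adjusted p = 0.11). Of 37 microtubule genes, DYNC1H1, the dynein heavy chain gene, was higher in 10plex with 75.5 and 94.7 RPM against 289 and 296 (1.78 ± 0.22, adjusted p = 0.00211), and MAPRE1, which encodes a plus-end binding protein, was higher in singleplex (-1.50 ± 0.33, adjusted p = 0.0289).

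Of 35 adhesion and polarity genes, FAT3 was higher in 10plex (1.78 ± 0.30, adjusted p = 0.0111) and the polarity gene PARD3 in singleplex, with 985 and 829 RPM against 459 and 371 (-1.13 ± 0.20, adjusted p = 0.0142). SLIT2, in the same group, was not called (-0.59 ± 0.23, adjusted p = 0.132). For protein kinases and phosphatases 3 of 50 were higher in singleplex, which were PRKCE, PRKCA and CAMK2D, and 0 in 10plex (15 and 0 at an unadjusted p of 0.05). For membrane traffic genes 4 of 55 were higher in singleplex, which were EXOC6B, NBEA, VPS13B and AP3B1, and 0 in 10plex (13 and 2 unadjusted). Of 47 ubiquitin and protein turnover genes, limma called 0 in either direction, and 10 in singleplex and 3 in 10plex passed the unadjusted p.

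Of 55 transcription factor genes, NFIA, PBX3, ZEB1 and TEAD4 were higher in singleplex and 0 in 10plex (12 and 0 unadjusted). NFIA had 68 and 53 enriched peaks in singleplex and 25 and 15 in 10plex, with 1590 and 1426 RPM against 914 and 871 (-0.75 ± 0.19, adjusted p = 0.045). TEAD4, a gene of the Hippo pathway, had a log2 difference of -1.29 ± 0.20 (adjusted p = 0.00833). Of 64 chromatin regulators, CHD4 and the SWI/SNF subunit genes SMARCC2 (1.05 ± 0.24, adjusted p = 0.0324) and SMARCA4 (1.39 ± 0.36, adjusted p = 0.045) were higher in 10plex and the acetyltransferase gene KAT6B in singleplex (-0.97 ± 0.21, adjusted p = 0.0269). With reads of enriched peaks only, SMARCA4 turned to -1.11.

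Of 55 cytoplasmic ribosomal protein genes, 13 were higher in 10plex and 4 in singleplex, with a median of -0.06. RPL13, with SNORD68 inside, had 60.3 and 115 RPM in singleplex and 1197 and 1182 in 10plex (3.82 ± 0.28, adjusted p = 0.000108). RPS2, with 2 small nucleolar RNAs inside, had 76.0 and 116 against 350 and 567 (2.23 ± 0.29, adjusted p = 0.00287). A small nucleolar RNA lay inside 11 of the 13 genes, inside 26 of the 55 tested and inside 0 of the 4 that were higher in singleplex, among them RPL10A, RPS15 and RPS10. Peaks on such an RNA at an exon or splice site of the host were assigned to the host, and their part in these values was not tested. The other two of the 13 were RPL26, with 2 and 3 enriched peaks in singleplex, and RPL14, with 1 and 0. Both had 0 and 0 in 10plex, so that their direction was the opposite by enriched peaks. Of 20 nuclear respiratory chain genes, NDUFAF2 (-1.81 ± 0.28, adjusted p = 0.00675) and UQCRH (-2.34 ± 0.40, adjusted p = 0.0114) were higher in singleplex and 0 in 10plex (7 and 2 unadjusted).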

How the data were processed

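RBFOX2 peaks of 2 singleplex and 2 10plex ABC libraries from HEK293 cells were analysed, grouped by the format and cell line in their labels. The authors trimmed reads with cutadapt 2.8, aligned them to GRCh38 with STAR 2.7.6 (versions per the submitters' processing notes), collapsed PCR duplicates and ran CLIPper for peak calling. For every CLIPper peak they deposited a p-value and a display score, and for merged peaks a −log10 P and a log2 fold over an external background. Peak names of the singleplex lists hold reads. Those of the 10plex lists do not, so reads were recovered from the whole numbers behind the deposited log2 fold and P, for the 88.8% to 91.9% of merged peaks above background. On the singleplex lists, 98.7% and 98.1% of recovered reads were equal to the named ones, and the recovered sums were 1.014 and 1.010 times the named sums. The site of RN7SK was among those where they were not equal. Reads at or below background, and outside peaks, were not available to any test. For 10plex, values against the other barcodes of the pool were not used, so that both formats had the same kind of control. Background reads were compared at peaks overlapping by 90% of both with at least 3 background reads in either library.

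Regions came from GENCODE 44 (the authors used 35), taking up to 100 nt of intron as splice site and up to 500 nt as proximal, and were the same as the authors' for 98.9% of peaks of each 10plex library. Where a peak met several features, coding exons, UTRs and splice sites of protein-coding genes ranked above noncoding exons, and these above other intron positions. The gene of the highest-ranked feature took the peak. Overlaps were made with bedtools 2.31.1. Reads of a gene, counted once where peaks touched, were scaled to 1000000 per library (RPM). Genes with an enriched peak in any library and a mean of at least 5 RPM were tested with limma 3.58.1 in R 4.3.3 (lmFit, and eBayes with trend) on log2(RPM + 1), where a fitted difference understates the change of low genes. Other values were compared with exact two-sided permutations of the 4 libraries in Python 3.11.15. The fit was tested on simulated data. Depth was 1158531 to 3352957 reads in peaks of genes.

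Named genes were NDEL1 and RBFOX2, the 10 with most enriched peaks, 5 per format found in that format only, 5 with the largest called differences in each direction, and from each of 12 function lists the 3 with most enriched peaks and all called members. The 8 sites had the highest mean log2 fold among GCATG sites enriched in all 4 libraries, at most 1 per gene and none on chromosome 8. The results of 1 list and of 1 member of another are not reported here. Members and lists were chosen with earlier results of these data known. Alternatives were other limits, list lengths, pseudocounts, filters, scalings, a replicate block and leaving out each library.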

Additional observations from a re-analysis of the deposited data

How the results depend on the processing

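The 3227 genes found in all 4 libraries became 1862 with P below 1e-05 and a fold above 16, 1816 with the top 10000 peaks, 1863 with at least 2 enriched peaks per gene and 11414 with all merged peaks, and 3320 to 3986 when a library was left out. Those found in singleplex only (689) became 219 with the top 10000 peaks, 364 with all merged peaks and 279 with the top 20000 peaks by reads. The last list was chosen after seeing the data. It holds only peaks above the background, and its 10plex reads were recovered from the fold and P over that background. The genes found in singleplex only were 847 to 1448 with a library left out. Those found in 10plex only (248) became 471 with the top 10000 peaks, 101 with at least 2 peaks and 600 with the top 20000, and 341 to 683 with a library left out. With the top 10000 and the top 20000 peaks the genes found in 10plex only thus outnumbered those found in singleplex only.

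Of 521 genes called by limma (51.8% higher in 10plex), leaving out a library left 0 to 290, with 0 to 201 higher in 10plex and 0 to 89 in singleplex: 0 without singleplex replicate 1, 5 without singleplex replicate 2, 290 without 10plex replicate 1 and 219 without 10plex replicate 2. With reads of enriched peaks only, 1123 were called, 789 of them higher in singleplex (29.7% higher in 10plex), and the median over all genes moved from -0.15 to -0.48. With numbers of enriched peaks 987 were called, 706 of them higher in singleplex (28.5% higher in 10plex), and with quantile normalization 139 were higher in singleplex (65.2% of all calls in 10plex). The replicate block called 565, of which 483 were shared. Replicate numbers did not pair the libraries, as deviations of same-numbered libraries correlated at -0.05 across genes.

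The difference in the 3′ UTR share (-0.20 points) was 0.0777 under the strict limits, 0.815 for the top 10000 peaks, 0.688 for the top 20000 and -0.59 to 0.178 with a library left out (0.178 without singleplex replicate 1). That in distance to a splice site (76 nt) was -114.75 and -70.25, and in host intron length (561 nt) -625 and -512, for the top 10000 and 20000. The difference in GCATG (2.66 points, 2.60 above windows) ran from -1.26 to 6.58, and above windows from -1.48 to 6.68, with a library left out, and the lowest values were without singleplex replicate 1. It was 6.65 (6.32 above windows) with peaks extended by 50 nt, 2.475 for the top 10000 and 6.59 for the top 20000. Of 119 alternatives for 15 such measures, 109 kept the direction. Among named genes, numbers of enriched peaks reversed ARHGAP26 (0.47), EPB41L5 (0.32), ABLIM1 (0.67), SMARCA4 (-0.48), RPL26 (-6.56), RPL14 (-2.58) and HNRNPU (-0.076), and reads of enriched peaks only reversed SMARCA4 (-1.11), RPL26 (-6.41), HNRNPU (-0.36), SRRM2 (-0.42) and SRRM1 (-0.22). RPL26 and RPL14 had 0 enriched peaks in 10plex, so the size of their values depends on the number added before taking logs. NDEL1 ran from -0.53 to 0.11 with a library left out, and turned without singleplex replicate 2. The causes were not tested.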
